A study of Mus musculus with 8 samples.

Results

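Neutrophils that carry RNA for the cytokine interleukin 1 beta were described here among cells set free from erythroblastic islands, the clusters of red cell precursors and attached myeloid cells in which red cells mature. A cell was taken when it held at least 3 UMIs (counted RNA molecules) of Il1b, at least 5 of Retnlg, fewer than 10 of Fcnb and at most 2 of C1qa, C1qb and C1qc summed. Of 24942 cells, 564 met the rule, a share of 2.26% (exact Clopper-Pearson 95% interval 2.08 to 2.45%). These cells are called the Il1b-positive neutrophils, and they gave 3518759 UMIs in all. The 4 measures of the rule chose the cells, so their levels are given as a description only.

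All animals were male Sle1.Yaa mice, which are prone to lupus, and no treatment is named. The labels give 4 groups: bone marrow of mice with a human TLR8 transgene, labelled anemic (2 libraries), marrow of controls without it, labelled non-anemic (3 libraries), spleen of transgenic mice (2 libraries) and spleen of a control (1 library). Sle1.Yaa is thus shared by all groups, and the labels name neither the promoter of the transgene nor the age of the mice. The columns of the table carry only barcodes, so no cell could be placed in a genotype or tissue, no effect of either was measured, and no p-value is given. Barcodes stood in 8 sorted stretches, called runs 1 to 8, which serve only for ranges. No barcode occurred in more than 1 run.

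Neutrophils mature in the marrow from dividing precursors that fill their granules in waves, first with primary granule enzymes, then with secondary granule proteins such as lactoferrin, and last with the gelatinase granules of nearly finished cells. Mature cells stop dividing, gain the chemokine receptor Cxcr2 and leave for the blood. On contact with microbial products or cytokines they make chemokines and pro-Il1b, which an inflammasome protease must cut before the cytokine acts.

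The Il1b-positive neutrophils were unevenly spread over the runs. Runs 1 to 8 held 67, 14, 172, 240, 5, 33, 30 and 3 of them. Their share of a run lay between 0.173% in run 5 and 5.66% in run 4, and runs 3 and 4 were the highest. Among all cells of the 4 neutrophil classes defined here, their share ranged from 6.04% in run 6 to 26.5% in run 7. Without run 4 the number of cells was 324. Levels by run are given for the 5 runs with at least 20 of these cells, which are runs 1, 3, 4, 6 and 7.

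The 3 other neutrophil classes and 2 unlike cell types that follow served for comparison, all with the same limit on the C1q genes except the erythroid cells. Il1b-low neutrophils (332 cells) met the same Retnlg and Fcnb limits with fewer than 3 UMIs of Il1b and fewer than 5 of Ltf. Immature neutrophils (2134 cells) held at least 5 UMIs of Ltf, the lactoferrin gene, and fewer than 3 of Il1b. Fcnb precursors (1535 cells) held at least 10 UMIs of Fcnb. Classical monocytes (1159 cells) held at least 3 UMIs of Ly6c2 and 2 of Ccr2 with fewer than 5 of Retnlg, and late erythroid cells (4023 cells) had 60% or more of their UMIs in globin RNA. The median depth was 5141 UMIs and 1246 genes per Il1b-positive neutrophil, against 5982.5 UMIs in Il1b-low neutrophils, 10444 in immature neutrophils, 14173 in monocytes and 8300 in late erythroid cells.

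The values that chose the cells were as follows. Il1b ran from 3 to 91 UMIs per cell with a median of 13, and Retnlg, which encodes a resistin-like protein of neutrophils, from 5 to 753 with a median of 155.5. Fcnb, a ficolin of granulocyte precursors, was at most 7 UMIs. Just inside the Il1b limit were 43 cells with 3 UMIs, and just outside it 73 cells with 2. The 2 sets were alike in depth (medians of 6548 and 6455 UMIs) and in the level of Acod1, at 319 and 327 CPM (UMIs of a gene per 1000000 UMIs). Stfa2l1 stood at 433 CPM inside and 862 CPM outside.

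The cells carried the RNA of neutrophils in bulk. All 18 genes of a neutrophil identity list were read at 20 CPM or more. S100a9 and S100a8, the subunits of the antimicrobial protein calprotectin, took 14.5% and 14.4% of all UMIs, and Retnlg a further 2.76%. Tmsb4x, an actin-binding peptide, stood at 41197 CPM, and the chemokine Cxcl2, at 10426 CPM, was among the 8 RNAs of highest level. Mmp9, the gelatinase of late granules, stood at 2179 CPM (exact 95% Poisson interval 2131 to 2229). Cxcr2, the receptor for Cxcl2, stood at 596 CPM (571 to 622), and Csf3r, the receptor for the growth factor G-CSF, at 895 CPM (864 to 927). These intervals cover counting error only.

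Markers of other cell types were low. Of 10 monocyte markers 6 were under 20 CPM, and their summed level was 1048 CPM (488 to 1212 by run) against 6678 CPM in classical monocytes. The macrophage list summed to 104.0 CPM, with Mertk at 0, but the rule itself limits its genes C1qa, C1qb and C1qc. With the same limit that list stood at 87.1 CPM in Il1b-low and 73.7 CPM in immature neutrophils. It stood at 68.4 CPM in classical monocytes and 184 CPM in Fcnb precursors. The T and NK cell list summed to 17.3 CPM, with Klrb1c and Ncr1 at 0. The B cell list summed to 9.09 CPM, with Ms4a1 and Fcmr among the genes at 0. Lists for plasma cells, dendritic cells, basophils, eosinophils, megakaryocytes, granulocyte-monocyte progenitors and stroma summed to between 6.54 and 168 CPM. In single runs the dendritic cell list reached 500 CPM and the megakaryocyte list 507 CPM. Erythroid markers summed to 2612 CPM (704 to 4914 by run), against 800278 CPM in late erythroid cells and 3481 CPM in immature neutrophils. No doublet caller was run. By a count of 5 or more UMIs of other types' markers, 24 of the 564 cells were mixed, and none had 10% or more globin. That count leaves out Ly6c2 and Pecam1, and with both read as markers of other types only 290 of the 564 cells would be left.

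The word mature held for most of the cells and not for all. Ltf was at 0 UMIs in 355 of them, and 102 of the 564 (18.1%) held 5 or more, up to 261. By run the Ltf level was 3971, 2287, 2358, 4892 and 389 CPM in runs 1, 3, 4, 6 and 7. Run 7 was lowest and run 6 highest. The same order held at the ends for Camp, which encodes a cathelicidin of secondary granules, with 439 CPM in run 7 and 15016 CPM in run 6. Of these 102 cells 84 fell into 1 cluster, described further on.

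The 4 genes given as marks of these cells were read in each of the 5 runs. Il1b (GRCm38 chr2:129364570-129371139, minus strand) stood at 2060, 2749, 2615, 2241 and 4991 CPM in runs 1, 3, 4, 6 and 7, highest in run 7. The Il1b-positive neutrophils held 46.5% of all Il1b UMIs of the table. Stfa2l1 (chr16:36156811-36161953, plus strand), a stefin A protease inhibitor, stood at 1144, 1069, 1337, 613 and 1281 CPM, lowest in run 6. Acod1 (chr14:103046977-103056573, plus strand), the enzyme that makes itaconate in activated myeloid cells, stood at 665, 779, 762, 1295 and 1834 CPM. Retnlg stood at 24273, 31004, 29265, 10639 and 25989 CPM, again lowest in run 6, whose cells were also the shallowest of these runs with a median of 2148 UMIs.

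**Figure D1:**
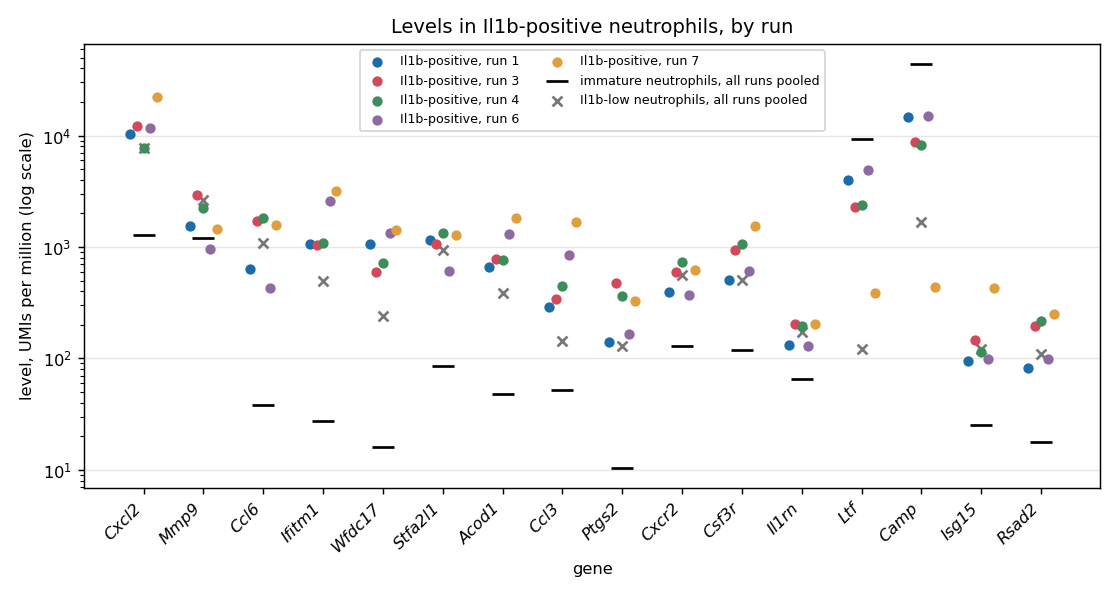
Level of 16 genes in the Il1b-positive neutrophils of each of the 5 runs with at least 20 of them (colored points), in CPM on a log axis, with the pooled level in immature (bar) and Il1b-low neutrophils (cross). Ccl6, Ifitm1 and Acod1 lie above the immature level in all 5 runs, and Camp spreads most between runs, from 439 to 15016 CPM.

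At a fixed depth of 2000 UMIs, 527 of the 564 cells could be compared with other classes and 37 shallower ones were left out, as were 33 Il1b-low, 55 immature and 64 late erythroid cells. Cxcl2 was found in 97.7% of these thinned cells (98.6% before thinning), 93.6% of Il1b-low neutrophils, 48.5% of immature neutrophils and 1.36% of late erythroid cells, which should lack it. Acod1 was found in 66.4% (86.9% before), against 43.1%, 9.38% and 0.0505% in the same 3 classes. Ptgs2 was found in 35.5% (52.3% before), against 14.7%, 1.97% and 0.0505%. Stfa2l1 was found in 40.8% (46.5% before), in 33.1% of Il1b-low neutrophils and in 0.0253% of late erythroid cells. Cxcr4, the receptor that keeps neutrophils in the marrow, was found in 24.5% (55.7% before), in 26.8% of Il1b-low neutrophils and in 0.935% of late erythroid cells.

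Against immature neutrophils the Il1b-positive cells showed more RNA of chemokine, NF-kB and interferon genes and less of secondary granule and cell cycle genes. Differences are log2 ratios of pooled levels with 10 CPM added to both, centred on the median gene. A gene was counted when the pooled levels were at least 2-fold apart and the sign was the same in each of the 5 runs with 20 cells of both classes. This is a description of 1 pooled sample and not a test. Of 4032 genes tested, 424 were counted higher (10.5%) and 263 lower (6.52%), and list counts are to be read against these shares. The widest differences of single genes were those of Il1b, which the rule used, Ifitm1, Wfdc17 and Ccl6.

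Genes of the chemokine list stood higher together, 7 of 9 tested and none lower. The list median was 2.91 (2.33 to 3.02 by run) against 0 for all genes. The 7 include Ccrl2, which encodes a receptor-like protein and no chemokine. Cxcl2, which draws neutrophils through Cxcr2, stood at 10322, 12190, 7785, 11639 and 22236 CPM in runs 1, 3, 4, 6 and 7, against 1269 CPM in immature cells, a log2 difference of 3.04 (at least 2.33 in each run). Run 7 was the highest, and every run lay above the pooled immature level. Ccl6 stood at 637, 1697, 1838, 432 and 1579 CPM against 38.3 CPM, a difference of 4.94. Ccl3, a chemokine that acts on myeloid cells through Ccr1, stood at 289, 338, 446, 856 and 1692 CPM against 51.7 CPM, with run 7 again the highest. Ccl4, its near relative, stood at 196 CPM against 8.50 CPM.

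The NF-kB pathway switches on inflammatory genes and its own inhibitors. Of 17 tested targets and feedback genes 13 were counted higher and none lower, with a median of 1.47 (1.09 to 1.96). Nfkbia, which holds NF-kB in the cytoplasm, stood at 2643 CPM against 574 CPM, a difference of 2.20 (1.65 to 2.81). Nfkbiz stood at 1355 CPM against 573 CPM, Tnfaip3, a brake on the pathway, at 298 CPM against 82.2 CPM, and Tnf at 228 CPM against 69.9 CPM. Of 31 genes that tissue dissociation can induce, 15 were higher as well and none lower, with a median of 0.99. Of the 33 genes of this list, 15 belong to another list used here too, namely Nfkbia, Nfkbiz, Mcl1 and 12 transcription factors, and the part of dissociation in these levels was not tested. Fos stood at 1856 CPM against 963 CPM and was not counted.

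Genes of the interleukin 1 system differed in parts. Of 10 tested, Il1b, Il1rn, Il1r2 and Nlrp3 were counted higher and none lower. Il1b chose both classes, so its difference is no result. Nlrp3, the sensor of the inflammasome that activates interleukin 1 beta, stood at 219, 395, 338, 363 and 177 CPM in runs 1, 3, 4, 6 and 7, against 30.4 CPM in immature cells. Il1rn, the antagonist of the receptor, stood at 176 CPM against 65.9 CPM, and Il1r2, a decoy receptor, at 517 CPM against 130.2 CPM. Casp1, the protease that cuts pro-Il1b, was low in both, at 26.1 CPM and 16.3 CPM, and was not counted. Gsdmd, the pore that lets the cytokine out, stood at 37.8 CPM and 29.0 CPM.

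Enzymes of itaconate and lipid mediators stood apart too, with 5 of 9 higher and 1 lower. Ptgs2, the cyclooxygenase of inflammatory prostaglandin synthesis, stood at 140.4, 470, 361, 167 and 326 CPM by run against 10.4 CPM, a difference of 4.09 (2.38 to 4.51). Pla2g7, which breaks down platelet-activating factor, stood at 179 CPM against 3.07 CPM. Acod1 stood at 825 CPM against 48.3 CPM, a difference of 3.85 (2.48 to 4.78), and every run was above the immature level. Lta4h, an enzyme of leukotriene B4 synthesis, was the 1 gene lower, at 78.7 CPM against 303 CPM.

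Receptors that guide neutrophils were the next group. In the list of trafficking and chemoattractant receptors 11 of 16 were higher and none lower. Cxcr2 stood at 394, 598, 737, 371 and 616 CPM by run against 128 CPM, C5ar1, a receptor for complement C5a, at 511 CPM against 215 CPM, and Fpr1, a receptor for bacterial formyl peptides, at 133 CPM against 48.1 CPM. Cxcr4 stood at 171 CPM against 91.5 CPM and was not counted. Csf3r stood at 501, 948, 1057, 613 and 1543 CPM by run against 119 CPM, a difference of 2.82. Of Fc and C-type lectin receptors 10 of 21 were higher, with Clec4d, a receptor for mycobacterial glycolipid, at 537 CPM against 24.96 CPM.

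Toll-like receptors were of interest because the transgene encodes a human one, which was not analysed here. Tlr2, which binds bacterial lipoproteins, stood at 224 CPM (208 to 240) against 33.5 CPM, and Tlr13, which binds bacterial ribosomal RNA, at 100.3 CPM (90.1 to 111) against 19.8 CPM. Both were counted among the 4 of 11 pathway genes higher. The mouse receptors for single-stranded RNA were low in these cells. Tlr7 stood at 8.53 CPM (5.75 to 12.2) from 30 UMIs, and Tlr8 at 2.27 CPM (0.982 to 4.48) from 8 UMIs. Tlr9 was at 0 UMIs, and 3 UMIs, a floor set here for such counts and not an exact limit, would be 0.853 CPM.

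Type I interferon induces antiviral genes in most cells. Of 28 tested genes of this response 19 were higher and none lower, with a median of 1.69 (0.78 to 2.03 by run). Ifitm1, a membrane protein against virus entry, stood at 1064, 1048, 1089, 2605 and 3150 CPM in runs 1, 3, 4, 6 and 7, against 27.4 CPM. Oasl2 stood at 141 CPM against 18.1 CPM, Slfn1 at 357 CPM against 127 CPM and Irf7, a transcription factor of the pathway, at 62.8 CPM against 23.7 CPM. Rsad2 stood at 176 CPM and Isg15 at 136 CPM, against 18.0 CPM and 25.3 CPM in immature cells. Both were far higher in late erythroid cells, at 722 CPM and 1143 CPM. The share of thinned cells with Isg15 was 19.9% in the Il1b-positive and 52.8% in late erythroid cells, and the shares for Rsad2 were 20.5% and 57.0%. In Il1b-low neutrophils the shares were 15.4% and 16.7%, and in immature neutrophils 4.67% and 3.80%. Against Il1b-low neutrophils only Ifitm1 of 30 tested interferon genes was counted higher and none lower. The list median there was 0.14 (-0.14 to 0.60 by run). Shares below those of late erythroid cells are not read here as expression. Isg15 and Rsad2 remain among the 19 genes counted by level against immature cells. The part of RNA from late erythroid cells in those levels was not tested. Ifitm1 at 3.04 CPM and Ifit3 at 0.16 CPM were near 0 in late erythroid cells.

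Survival genes and transcription factors of activated cells were partly higher. Mcl1, which neutrophils need to live, stood at 1833 CPM against 864 CPM, and 6 of 15 survival and death genes were counted higher. Pim1, a kinase that acts below cytokine receptors, stood at 1339 CPM against 112 CPM. Among 27 transcription factors 8 were higher, with Cebpb at 3180 CPM against 591 CPM and Junb at 3415 CPM against 801 CPM, and 1 was lower. That was Cebpe, the factor that drives secondary granule genes, at 87.0 CPM against 379 CPM.

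Secondary granule and cell cycle RNAs stood lower. Of 18 secondary granule genes 9 were lower and none higher. Immature cells were chosen by Ltf, 1 of the 9, so its difference is no result. How far that choice set the levels of the other genes of the list was not tested. Camp stood at 9349 CPM against 43703 CPM, Ngp at 8658 CPM against 33257 CPM and Chil3, a chitinase-like protein, at 1105 CPM against 5870 CPM. In run 7 these 3 were lowest, at 439, 1480 and 113.3 CPM. Of 22 cell cycle genes 21 were lower and none higher, with a median of -1.96 (-3.10 to -1.32). Mki67, a mark of dividing cells, stood at 14.4, 29.6, 25.5, 159.0 and 21.2 CPM by run against 287 CPM, with run 6 apart from the rest, and Top2a at 18.5 CPM against 218 CPM. Mmp8, the collagenase of granules, stood at 1706 CPM against 1304 CPM and was not counted. With the cells of 5 or more Ltf UMIs left out, 495 genes were lower in all, among them 260 of the 263 counted over all cells. Of the 424 higher genes 410 were counted without those cells too.

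The remaining lists differed in direction. The stefin A cluster had 2 of 6 genes higher, with a list median of 2.92 and medians by run from -1.30 to 3.77. Stfa1, 1 of its genes that was not counted, stood at 361 CPM in runs 1 and 7, 88.9 CPM in run 3, 449 CPM in run 4 and 0 in run 6. Of 18 neutrophil identity genes 8 were higher and 1 lower, and of 16 genes of tertiary granules and secretory vesicles 7 were higher and none lower. Primary granules had 2 of 8 genes higher and 3 lower, and the NADPH oxidase and its defence genes 4 of 18 higher and 2 lower. Glycolysis and hypoxia had 5 of 23 higher and 1 lower, with a median of 0.13. In the list of growth factor and checkpoint receptors 10 of 20 genes were higher and none lower. The 10 include genes of ligands, namely Csf1, Osm, Tnfsf14 and Cd274.

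**Figure D2:**
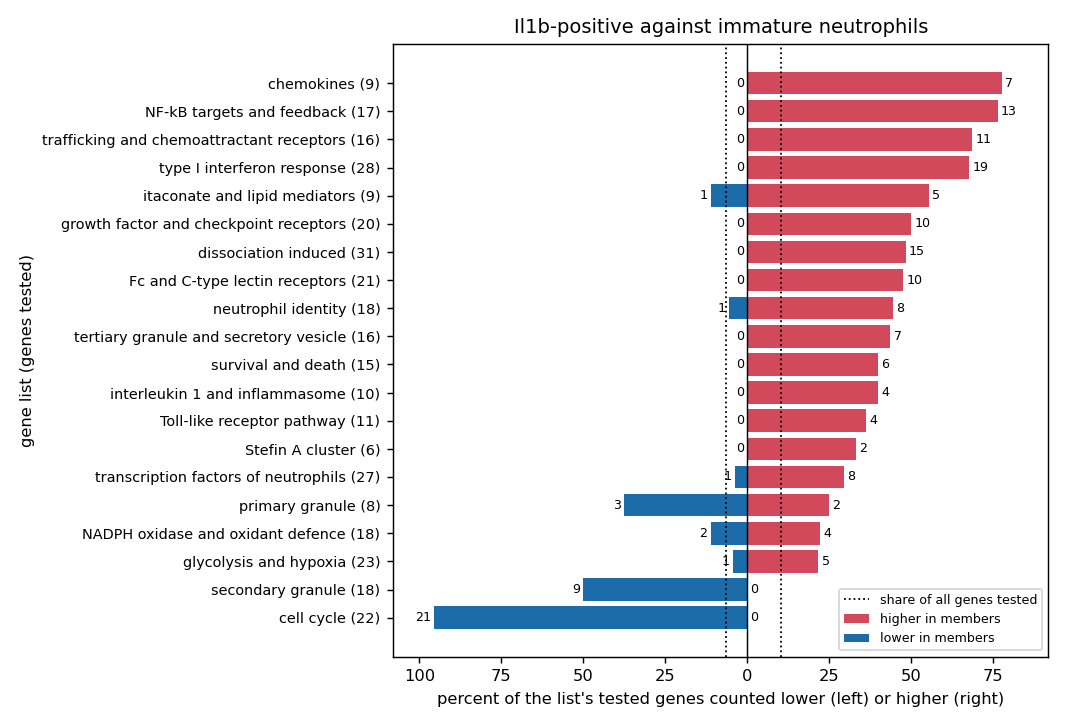
Share of each gene list's tested genes counted lower (left, blue) or higher (right, red) in Il1b-positive than in immature neutrophils, in percent, with the number of genes beside each bar and the list's tested genes in parentheses. Dotted lines mark the shares over all genes, 10.5% higher and 6.52% lower, and the cell cycle list has 21 of 22 genes on the lower side.

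**Figure D3:**
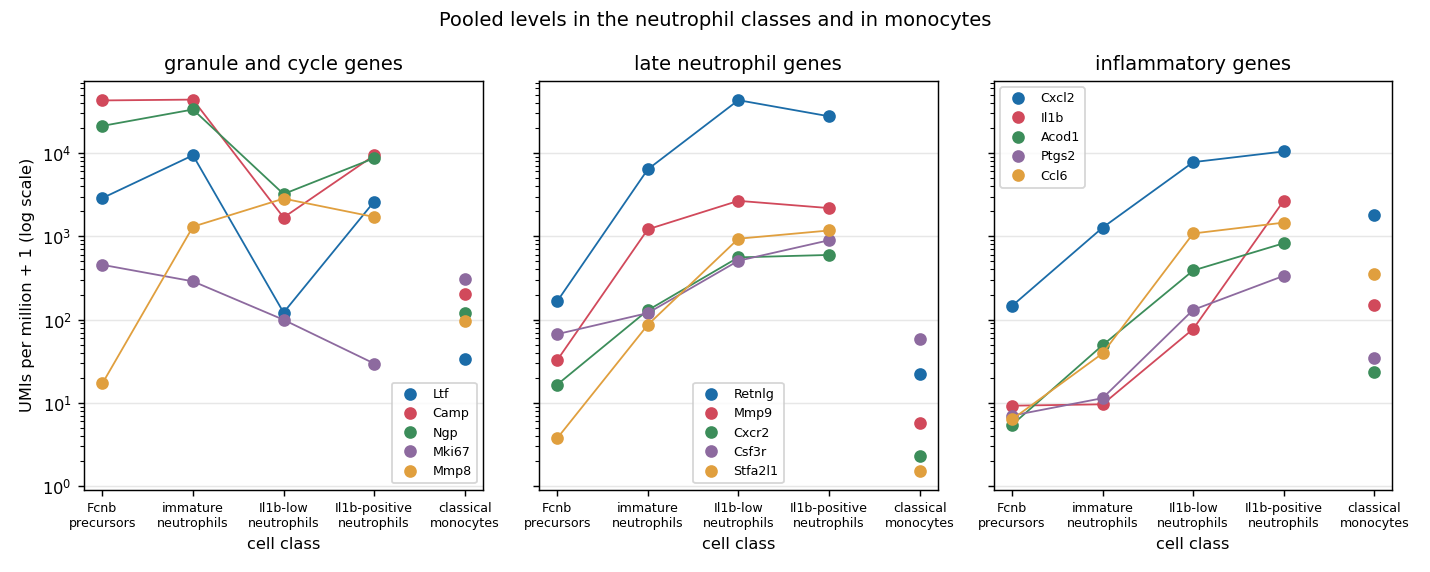
Pooled levels (CPM plus 1, log axis) of 15 genes in 4 neutrophil classes, joined by lines to guide the eye and not as a measured course, and in classical monocytes. The Il1b-positive class resembles the Il1b-low class in Cxcr2 (596 and 557 CPM), holds more Ltf, and is the highest of the 5 classes for Acod1 and Ptgs2.

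By these counts the Il1b-low neutrophils were the nearest of the 3 classes compared gene by gene. Of 3567 genes tested over runs 1, 3 and 4, 28 were higher in the Il1b-positive cells (0.785%) and 19 lower (0.533%). Not centred, the counts were 35 and 12, and with each cell weighted alike 47 and 10. Il1b itself chose the classes. Csf1, the growth factor of macrophages, stood at 57.4, 70.8, 78.8, 295 and 113.3 CPM by run, against 15.6 CPM in Il1b-low cells, a difference of 1.89 (0.86 to 2.29 in the 3 runs). Run 6 was highest. Wfdc17 stood at 878 CPM against 242 CPM, a difference of 1.77 (1.29 to 2.30), and Ifitm1 at 1283 CPM against 499 CPM, a difference of 1.30. Ccl3 stood at 449 CPM against 142 CPM, Acod1 at 825 CPM against 388 CPM, Steap4 at 39.2 CPM against 1.56 CPM and Pla2g7 at 179 CPM against 77.7 CPM.

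Many genes that set the Il1b-positive apart from immature cells were not counted against Il1b-low cells. Cxcl2 differed by 0.38 (0.11 to 0.55 by run), Nlrp3 by 0.16 (0.17 to 0.42), Cxcr2 by 0.05 (-0.30 to 0.31), Stfa2l1 by 0.28 and Cebpb by 0.35. Csf3r differed by 0.76 (0.38 to 0.97). Il1rn differed by -0.01 (-0.21 to 0.24), with 176 CPM and 172 CPM. Retnlg, which both classes share by rule, was lower, at 27567 CPM against 43034 CPM, and short of the 2-fold limit.

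The limit on Ltf entered this comparison, because it held for the Il1b-low class and not for the other. Ltf, Camp, Ngp, Chil3 and Orm1 were counted higher over all Il1b-positive cells. Among the 462 of them with fewer than 5 Ltf UMIs, Camp was lower by 1.49 and Ngp by 1.71 on the log2 scale, and Chil3 was at -0.26. In those 462 cells 60 of 3581 genes were higher (1.68%) and 38 lower (1.06%), and 20 of the 28 higher genes were among the 60. Ptgs2 was then counted too, at 439 CPM against 130 CPM, and so was Csf3r. Among trafficking receptors C5ar2 and Ptafr were higher, and among identity genes Cd177 was lower. Of 10 genes tested in the chemokine list, Cxcl10, Ccl3, Ccl4 and Ccrl2 were higher.

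Genes of plasma cells and red cells led those lower than in Il1b-low cells. The summed plasma cell list stood at 49.7 CPM against 181 CPM, and the erythroid list at 2612 CPM against 10310 CPM. Mzb1 and Jchain of plasma cells stood at 1.71 and 17.6 CPM against 65.2 and 63.6 CPM. The adult globin Hbb-bs stood at 1289 CPM against 5050 CPM. Within runs 1, 3 and 4 these gaps were uneven. Hbb-bs differed by -2.01 pooled but by -1.52 to -0.09 by run, and Hba-a1 by -2.20 pooled but by -1.37 to -0.59. For both globins the pooled gap was thus wider than in any of these runs. Mzb1 ranged from -3.80 to -0.05 by run and Jchain from -2.30 to -0.10. With cells that carried markers of other types or 10% or more globin left out of both classes, 28 genes were higher and none lower. Without run 3 the number higher was 43, and without run 4 it was 44, with 11 lower.

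Classical monocytes, blood phagocytes of the other main myeloid line, were compared over runs 1, 3, 4 and 6. Of 5854 genes 1284 were higher in the Il1b-positive neutrophils (21.9%) and 945 lower (16.1%) on the centred scale. The centring removed a shift of -0.87, and without it 514 were higher and 2560 lower. Ribosomal protein RNA took 3.27% of the UMIs of these neutrophils and 20.6% of those of monocytes. All 18 neutrophil identity genes and all 16 genes of tertiary granules and secretory vesicles were higher. Retnlg, a neutrophil gene, chose both classes in opposite directions, with a minimum in the neutrophils and an upper limit in the monocytes. How far that choice set the levels of the genes of these lists was not tested. Ptgs2 stood at 334 CPM against 33.1 CPM and Acod1 at 825 CPM against 22.8 CPM. Il1b stood at 2674 CPM against 149 CPM, but it chose the neutrophils and not the monocytes, so its difference is no result. Ccl3 and Ccl4 were not counted in either direction. Ccl3 stood at 449 CPM in the neutrophils and 504 CPM in monocytes, and Ccl4 at 196 CPM and 407 CPM. Ccl2, which draws monocytes, stood at 27.9 CPM against 769 CPM and was counted lower, as were the matrix protein Fn1 (8.53 CPM against 1009 CPM) and the clotting factor F13a1 (7.39 CPM against 718 CPM).

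The Il1b-positive neutrophils were not uniform. Clustered among themselves on 1000 variable genes, with the genes of the rule left out, they fell into 5 clusters of 167, 156, 101, 98 and 42 cells. The leading genes, ranked by their ratio to the other Il1b-positive cells, define the clusters and are a description with no test. Clusters have numbers and no cell type names.

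**Figure D4:**
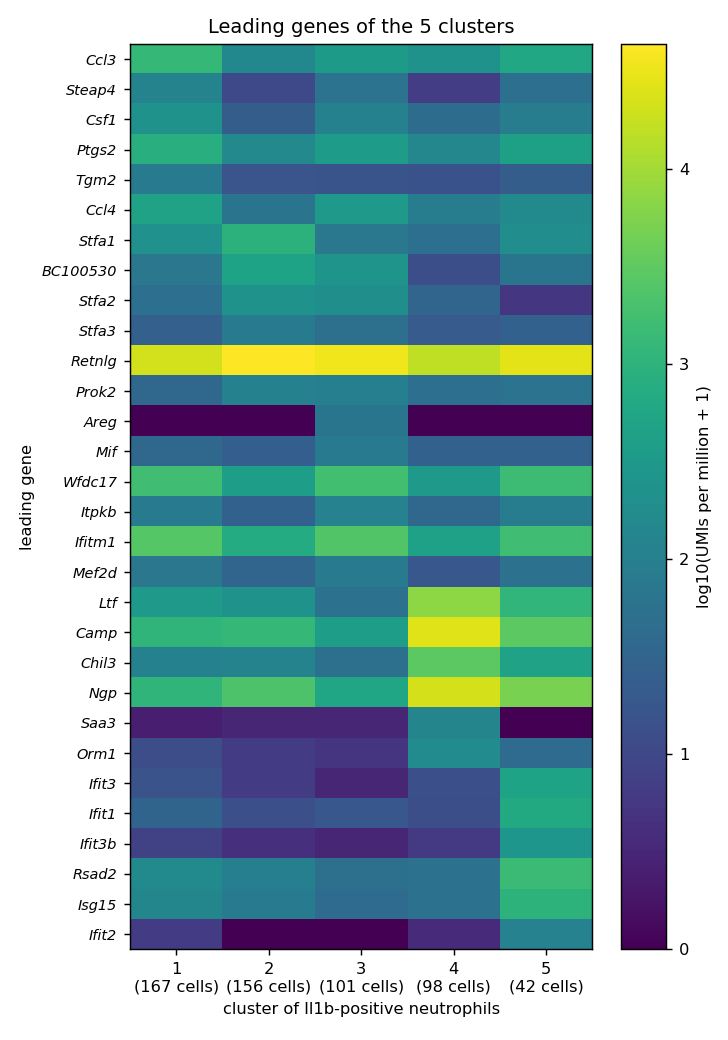
Level of the leading genes of 5 clusters of Il1b-positive neutrophils, up to 6 genes per cluster, as log10 of CPM plus 1 (color). Ltf, Camp, Chil3 and Ngp stand out in cluster 4 and the Ifit genes, Rsad2 and Isg15 in cluster 5, while Wfdc17 and Ifitm1 are higher in clusters 1, 3 and 5 than in clusters 2 and 4.

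Cluster 1 (167 cells) was led by Ccl3, Steap4, Csf1, Ptgs2, Tgm2 and Ccl4. Ccl3 stood at 1245 CPM against 250.2 CPM in the other Il1b-positive cells and was read in 108 of the 167 cells. Ptgs2 stood at 862 CPM against 202 CPM, and Csf1 at 238 CPM against 50.5 CPM. In runs 3 and 4, which gave most cells, Ccl3 stood at 1177 and 1155 CPM in this cluster. Il1b, a gene of the rule, stood at 5065 CPM, and in run 4 at 4152 CPM against 4435 CPM in cluster 3. These cells had a median of 3634 UMIs, the lowest depth, and a median of 3.05% mitochondrial UMIs, the highest. The part of RNA quality in the cluster was not tested.

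Cluster 2 (156 cells) was led by the stefin A genes Stfa1, BC100530, Stfa2 and Stfa3, which encode inhibitors of cysteine proteases and lie close together on chromosome 16. Few cells carried them: Stfa1 was read in 22 cells, BC100530 in 17 and Stfa2 in 13. These genes are close copies, so reads may have been shared out between them or lost. Retnlg, next in rank and a gene of the rule, stood at 43942 CPM against 21572 CPM, and Mmp8 at 2352 CPM against 1470 CPM. The mitochondrial share was the lowest, with a median of 0.547%. Chemokine genes had a median log2 ratio of -0.77 to the other Il1b-positive cells, against 0.81 in cluster 1.

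Cluster 3 (101 cells) had Wfdc17 at 1738 CPM against 746 CPM, Ifitm1 at 2369 CPM against 1116 CPM, Asprv1 at 684 CPM against 330 CPM and Ccl6 at 2501 CPM against 1297 CPM. Clusters 1 and 5 were high for the first pair as well, with Wfdc17 at 1689 and 1554 CPM and Ifitm1 at 2594 and 1683 CPM. None of these cells held 5 UMIs of Ltf. Areg, a growth factor of the EGF family, ranked first from 29 UMIs, but only 2 cells carried it. Il1b stood at 4640 CPM, near the level of cluster 1. Secondary granule genes had a median of -1.41 in cluster 3 and -1.43 in cluster 1.

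Cluster 4 (98 cells) was led by Ltf, Camp, Chil3 and Ngp. Ltf stood at 7192 CPM against 302 CPM, close to the 9380 CPM of immature neutrophils, and 84 of the 98 cells held at least 5 UMIs. Camp stood at 25583 CPM against 1181 CPM, and Cebpe at 201 CPM against 29.5 CPM. These cells were the deepest, with a median of 11128 UMIs, and their Il1b was the lowest of the clusters, at 1004 CPM. Acod1 stood at 365 CPM and Cxcl2 at 5532 CPM, both the lowest of the 5 and above the 48.3 and 1269 CPM of immature neutrophils. By the limit of 5 UMIs, without Ly6c2 and Pecam1, 17 of the 98 cells carried markers of other types, against 7 in the other 4 clusters together, and the limit was not scaled to the greater depth of these cells. Saa3, among its leading genes, came from 3 cells. S100a4 and Ms4a6c, leading genes as well, stood at 124 and 62.8 CPM and were read in 16 and 12 cells. In runs 3 and 4 S100a4 stood at 6.56 and 12.4 CPM, and Ms4a6c at 6.56 and 4.95 CPM. Classical monocytes held 1701 CPM of S100a4 and 936 CPM of Ms4a6c. Ccr2 at 55.2 CPM and Cd74 at 148 CPM were also lower in runs 3 and 4. The source of these RNAs was not tested. With the limits set per 5000 UMIs of a cell the rule gave 539 cells in place of 564.

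Cluster 5 (42 cells) was led by Ifit3, Ifit1, Ifit3b, Rsad2, Isg15 and Ifit2, all induced by interferon. Ifit3 stood at 500.1 CPM against 9.41 CPM and was read in 28 of the 42 cells, and Ifit1 at 652 CPM against 16.7 CPM in 21 cells. Rsad2, viperin, stood at 1465 CPM against 88.0 CPM in 37 cells. In run 3 Rsad2 stood at 1250.5 CPM in this cluster and at most at 175 CPM in another, and in run 4 at 1903 CPM and at most at 159 CPM. Globin RNA took 0.285% of UMIs in cluster 5 and 0.184 to 0.350% in the other clusters. The list of interferon genes had a median of 1.98 in this cluster and of -0.97 to 0.05 in the other 4. Acod1 stood at 1585 CPM and Cxcl2 at 11435 CPM in its pooled cells.

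The promoters of the genes that led cluster 5 are shown because these genes stood high together and interferon acts on a known DNA element, the interferon-stimulated response element. Promoters are from RefSeq for GRCm38.p6, from 250 bases before to 50 bases after a gene's start. The motif searched was GAAANNGAA on both strands, the core of that element. It and the motif used further on were chosen after matches of 6 motifs had been seen. Of the 15 leading genes 13 matched the table by symbol, and 9 of these had at least 1 match, while 9.76% of all 27025 genes did. Capitals mark the matches, some of which overlap, and the sequence is that of the gene's strand, 5′ to 3′. A match is a description of the letters and not a site of binding.
Ifit1 (chr19:34640760-34640833, plus strand): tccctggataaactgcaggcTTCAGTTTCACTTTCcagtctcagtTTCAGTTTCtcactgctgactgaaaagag
Ifit3 (chr19:34583354-34583402, plus strand): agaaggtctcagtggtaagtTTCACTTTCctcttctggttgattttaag
Ifit3b (chr19:34607750-34607798, plus strand): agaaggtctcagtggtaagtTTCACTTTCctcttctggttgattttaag
Rsad2 (chr12:26456543-26456591, minus strand): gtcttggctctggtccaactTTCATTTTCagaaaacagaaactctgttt
Isg15 (chr4:156200856-156200916, minus strand): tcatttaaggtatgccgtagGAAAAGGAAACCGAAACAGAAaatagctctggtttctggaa
Slfn5 (chr11:82951927-82951998, plus strand): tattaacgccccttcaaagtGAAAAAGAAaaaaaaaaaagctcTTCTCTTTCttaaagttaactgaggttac
Cxcl10 (chr5:92349074-92349122, minus strand): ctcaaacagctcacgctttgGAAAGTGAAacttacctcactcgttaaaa

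The promoter stretches of Ifit3 and Ifit3b are letter for letter the same. Whether reads of the 2 genes can be told apart was not tested. Ifit1 and Isg15 hold matches in a row. In Ifit1 the first begins 109 bases before the gene's start, in Isg15 78 bases before it and in Rsad2 119 bases before it.

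The same was done for chemokine and NF-kB genes counted higher than in immature neutrophils, since Cxcl2 was the chemokine RNA of highest level in these cells. The core GGGANTTTC of an NF-kB site, on both strands, was in the promoters of 3 of 17 such genes in the table and of 1.29% of all genes. The 3 were Cxcl2, Cxcl3 and Nfkbia, with capitals as before.
Cxcl2 (chr5:90903782-90903830, plus strand): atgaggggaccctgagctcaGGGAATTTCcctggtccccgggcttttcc
Cxcl3 (chr5:90786008-90786056, plus strand): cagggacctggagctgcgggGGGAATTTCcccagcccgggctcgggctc
Nfkbia (chr12:55492732-55492780, minus strand): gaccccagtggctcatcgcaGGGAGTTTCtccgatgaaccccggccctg
Cxcl2 and Cxcl3 share the 9 letters of the match. Cxcl3 stood at 49.2 CPM against 4.81 CPM in immature neutrophils, and both genes were counted higher.

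The makeup of the Il1b-positive cells differed between runs. Cluster 1 took 13.4% of them in run 1 (exact 95% interval 6.33 to 24.0%), 23.3% in run 3, 33.8% in run 4, 45.5% in run 6 (28.1 to 63.6%) and 46.7% in run 7 (28.3 to 65.7%). Cluster 2 took 29.9, 30.2 and 30.8% in runs 1, 3 and 4, and 6.06 and 13.3% in runs 6 and 7. Cluster 4 took 33.3% in run 6, from 11 cells, and 3.33% in run 7, from 1 cell. Cluster 5 took between 3.03% in run 6 and 16.7% in run 7, with intervals that overlap in all 5 runs. Depth differed between runs as well. The median was 7455, 5439.5, 4736, 2148 and 4200.5 UMIs per Il1b-positive neutrophil in runs 1, 3, 4, 6 and 7. Cluster 1, the shallowest cluster, had its lowest share in the deepest of these runs and its highest shares in the 2 shallowest. The part of depth in these shares was not tested. Whether the differences follow genotype or tissue cannot be told from the table.

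**Figure D5:**
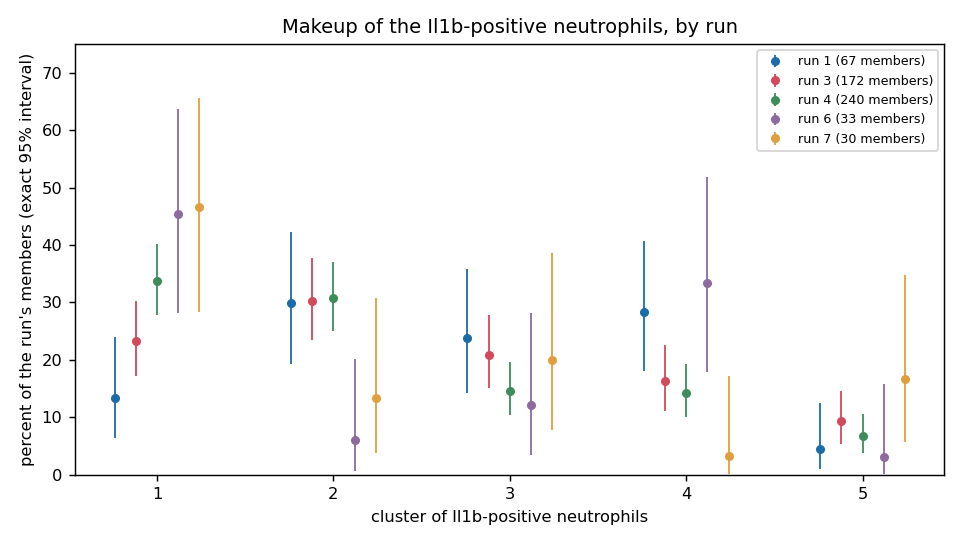
Share of each run's Il1b-positive neutrophils that fell into each of the 5 clusters, in percent, with exact 95% binomial intervals, for the 5 runs with at least 20 such cells. Runs 6 and 7 have the highest shares of cluster 1, at 45.5% and 46.7%, and run 7 the lowest share of cluster 4, at 3.33%.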

How the data were processed

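Cells of erythroblastic islands were isolated on albumin gradients, freed with EDTA and gentle force, and made into libraries with 10x Genomics v3.1 chemistry, per the labels' protocols. The authors deposited UMI counts as 1 table of genes by cells (19669 genes, 24942 cells, 248384567 UMIs), not normalized. Cell Ranger 5.0.0, Seurat 3.1.5 and the mm10 build were used per the submitters' processing notes, and no source used here states the filters on cells. No cell is tied to a library, so all cells form 1 pooled sample without replicates.

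The rule was applied to raw UMIs and no cell was left out. Sums of UMIs over a class were scaled to CPM, with exact 95% intervals that cover counting error only (Python 3.11.15 with pandas 2.3.3, scipy 1.17.1 and numpy 2.4.6). A comparison took genes that reached 20 CPM in 1 or both of its classes. The calculation was tested on simulated data. Cells were scaled to 10000 UMIs, log-transformed and clustered with 15 components, 15 neighbours and resolution 0.5 (scanpy 1.11.5, leidenalg 0.10.2, scikit-learn 1.9.0). A leading gene had at least 50 CPM in its cluster. Thinning drew 2000 UMIs per cell, 1 draw. In the count of mixed cells Ly6c2 and Pecam1 were not read as markers of other types, because 421 of the 564 cells held Ly6c2, a choice made after seeing the data. Positions are from GENCODE M21 (GRCm38) and promoters from RefSeq (GRCm38.p6).

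The rule for genes to name took the 4 marker genes, the 15 of highest level, up to 6 of each of 20 lists plus those counted, and the 10 highest and lowest of each comparison, leaving out predicted, ribosomal protein, mitochondrial and antigen receptor genes. Casp1, Gsdmd, Tlr7, Tlr8, Tlr9, Pim1, Cxcl10 and the leading genes of clusters were named after their values were seen. The cells and the lists were chosen with earlier results of these data known.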

Additional observations from a re-analysis of the deposited data

How the results depend on the processing

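Without replicates these alternatives show stability within 1 pooled sample only, and depth limits the smaller classes. The share of all cells was 1.92% with an Il1b minimum of 5 UMIs and 1.56 to 2.92% when each run was left out in turn, with 324 to 561 cells. With Ly6c2 and Pecam1 read as markers of other types, which was added after seeing the data, 290 cells remained. Leaving out each run, genes higher and lower than in Il1b-low neutrophils numbered 26 to 44 and 11 to 28, than in immature neutrophils 400 to 462 and 245 to 309, and than in monocytes 1241 to 1367 and 889 to 994. Against Il1b-low cells the number higher was 56 with limits per 5000 UMIs, 62 with 1 CPM added, 47 as the mean of single cells and 60 with members limited to fewer than 5 Ltf UMIs, the last added after seeing the data. The number lower was 0 without cells carrying markers of other types and 12 not centred. It was 11 at a minimum of 50 CPM, 10 as the mean of single cells and 38 with the Ltf limit. With limits per 5000 UMIs 18 were lower, but only 4 of the 19 lower genes of the main setting were among them. Of its 28 higher genes 25 were kept. Against immature cells the number lower was 554 with limits per 5000 UMIs, 433 with 1 CPM added and 495 with the Ltf limit. Against monocytes 514 were higher and 2560 lower when not centred, 687 and 2436 with no minimum level, and 1568 lower with 1 CPM added. Resolution 1 gave 8 clusters. The causes were not tested. With the Ltf limit Ltf turned to -0.87, Chil3 to -0.26, Camp to -1.49 and Zmpste24 to -0.13, and without cells of other markers Slc4a1 turned to 0.11 and Mgst3 to 0.026. The named genes kept their sign and their call in all 360 values against immature cells and all 340 against monocytes. Against Il1b-low cells 314 values kept both and 40 kept the sign alone. At resolution 1 all 42 cells of cluster 5 stayed together, and 47 of the 98 of cluster 4. For clusters 1, 2 and 3 the largest parts that stayed together were 93 of 167, 84 of 156 and 70 of 101 cells. With 2000 variable genes there were 6 clusters. The largest parts were then 145, 122, 68, 49 and 38 cells for clusters 1 to 5. No paired analysis was possible of labelled replicates, because the columns carry no replicate numbers, and classes were compared within runs instead.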
